A study of Homo sapiens with 12 samples.

Results

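miR-221 and miR-222 are a pair of human miRNAs made from neighbouring precursors on the X chromosome. They were taken from the deposited table of dCt values by their numbers, leaving out assays of the opposite strand, which gave 2 of 501 assays, hsa-miR-221 and hsa-miR-222. The levels came from a pair of established human lines of embryonal carcinoma, the malignant counterpart of early embryonic cells. NTera-2 cells can differentiate, and 2102Ep cells are regarded as nullipotent because they resist differentiation by retinoic acid. Growth at low density or silencing of SOX2 can still make 2102Ep cells differentiate. Each line was treated as NC and as siSOX2, which made 4 groups of 3 biological replicates. NC cells received a non-targeting siRNA and siSOX2 cells an siRNA against SOX2, a transcription factor that keeps pluripotent cells undifferentiated. Transfection lasted 6 h, with 15 nM siRNA for 2102Ep and 30 nM for NTera-2 and with a different Lipofectamine reagent for each, so dose and reagent cannot be told apart from the line. Cells were harvested after 72 h. Each line is 1 established culture, and the SOX2 mRNA was not measured on the miRNA cards.

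A miRNA guides the silencing machinery to mRNAs that pair with its seed, the stretch near its 5′ end. miR-221 and miR-222 are best known for silencing CDKN1B and CDKN1C, inhibitors of the cell cycle, and the receptor KIT, and they are often high in solid tumours and in differentiated mesenchymal and endothelial cells. Since they share a host transcript and a seed, they are usually treated as a unit.

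The mature sequences are given below because the shared part carries the target choice and the unshared part lets separate PCR assays tell the members apart. Bases 2 to 8, the seed, are in capitals, and sequences and positions are those of RefSeq (GRCh38.p14, minus strand).
hsa-miR-221-3p: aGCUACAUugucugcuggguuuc
hsa-miR-222-3p: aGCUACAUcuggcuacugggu
hsa-miR-222-5p: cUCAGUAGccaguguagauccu
miR-221-3p has 23 bases and lies at chrX:45746180-45746202, and miR-222-3p has 21 bases and lies at chrX:45747036-45747056. The first 8 bases of these sequences are identical, and without gaps 11 of 21 positions match. Among 2370 mature miRNA names in the RefSeq table, 2 carry this seed, miR-221-3p and miR-222-3p themselves. The strand from the opposite arm of the MIR222 precursor, miR-222-5p, lies at chrX:45747073-45747094, has another seed, and was measured by the assay named miR-222*. The opposite strand of the MIR221 precursor was not analysed here.

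The precursors are shown with the mature 3′ arm in capitals, so that its place in the hairpin can be seen.
MIR221: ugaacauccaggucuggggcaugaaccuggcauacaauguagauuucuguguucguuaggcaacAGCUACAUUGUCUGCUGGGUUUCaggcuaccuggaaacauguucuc
MIR222: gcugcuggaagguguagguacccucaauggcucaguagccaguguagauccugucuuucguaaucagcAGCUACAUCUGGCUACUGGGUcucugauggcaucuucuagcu
MIR221 (chrX:45746157-45746266) and MIR222 (chrX:45747015-45747124) are hairpins of 110 bases each, with 748 bases between them. Both lie inside MIR222HG, a long non-coding RNA gene of 25054 bases (chrX:45745214-45770267), and the start of MIR222HG was searched for SOX-type motifs because the study lowered a SOX factor. The window from 250 bases before to 50 bases after that start (chrX:45770218-45770517) is printed with the motif in capitals.
MIR222HG: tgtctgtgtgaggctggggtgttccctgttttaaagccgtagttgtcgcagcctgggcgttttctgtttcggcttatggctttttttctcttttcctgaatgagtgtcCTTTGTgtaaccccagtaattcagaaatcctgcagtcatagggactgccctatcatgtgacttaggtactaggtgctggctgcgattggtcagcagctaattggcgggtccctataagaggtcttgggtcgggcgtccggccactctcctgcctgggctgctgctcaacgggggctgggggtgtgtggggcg
CTTTGT occurred once, at bases 109 to 114 of the window, and CATTGT did not occur on either strand. The motifs do not overlap each other. CTTTGT was present on either strand in 16.1% of 35116 promoter windows of this length, and 24.5% held CTTTGT or CATTGT. The match is thus only a description, and whether SOX2 binds there was not tested.

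The values are cycle numbers of real-time PCR. The Ct counts the cycles needed for the signal to pass a set limit, so a lower Ct stands for more template, and each cycle is roughly a doubling, or 1 log2 unit. A dCt is the Ct minus a reference, so a lower dCt is a higher level relative to that reference. On card A, which holds both members, the authors subtracted the mean of miR-16 and of U6, a small nuclear RNA. Card B holds miR-222*, and its reference joined U6, RNU48 and miR-16-1* for NTera-2 and was not traced for 2102Ep. In each sample, 420 to 451 of the 501 assays gave a value. Of 8 miRNAs that mark embryonal carcinoma, from the miR-302 and miR-371 clusters, all 8 were measured in the samples, at Ct 13.8 to 27.0. Among them, miR-371-3p and miR-372 crossed later in NTera-2 NC samples (mean Ct 25.2 and 22.9) than in 2102Ep NC samples (19.1 and 16.7). The others of the 8 crossed earlier in NTera-2 NC samples. Of 4 fibroblast and mesenchymal markers, 2 were matched to an assay. miR-143 had a mean Ct of 26.1 in 2102Ep NC and 22.8 in 2102Ep siSOX2 samples, where 2 of 3 gave a value, and was not measured in NTera-2 cells. miR-145 had a mean Ct of 23.1 in 2102Ep NC, 22.7 in 2102Ep siSOX2 (again 2 of 3 samples), 25.2 in NTera-2 NC and 23.7 in NTera-2 siSOX2 samples. Of the other cell type markers that were found, 2 blood miRNAs lay at Ct 22.8 to 29.8, 2 muscle miRNAs at 20.5 to 26.8 and the endothelial miR-126 at 20.8 to 24.0, and their part in the results was not tested. The blood miRNA miR-142-3p was not measured in 2102Ep cells and lay at Ct 27.5 to 29.8 in NTera-2 cells. In such bulk RNA, fewer cells of a kind and less RNA per cell cannot be told apart.

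Both members were measured well inside the range of the assay in every sample. The raw Ct of miR-221 in 2102Ep NC samples was 22.2, 21.8 and 22.3, and in 2102Ep siSOX2 samples it was 23.0, 22.3 and 23.0. In NTera-2 NC samples it was 21.0, 20.0 and 20.6, and in NTera-2 siSOX2 samples 21.0, 21.2 and 21.1. Every NTera-2 sample thus crossed the limit at an earlier cycle than every 2102Ep sample. The raw Ct of miR-222 was 19.5, 19.7 and 19.7 in 2102Ep NC, 19.8, 19.5 and 20.0 in 2102Ep siSOX2, 17.7, 16.8 and 17.2 in NTera-2 NC, and 17.8, 17.9 and 17.9 in NTera-2 siSOX2 samples. The lines were again fully separated, and miR-222 gave a lower Ct than miR-221 in every sample, although Ct values of different assays also depend on how well each assay amplifies. U6 and miR-16 on card A also crossed earlier in every NTera-2 sample than in every 2102Ep sample. Set against the mean of the card, 41.4% of 384 assays had NTera-2 NC samples that all lay above those of 2102Ep NC. The share in raw Ct was not counted. After subtraction of the reference the pooled standard deviation within groups was 0.17 for miR-221 and 0.16 for miR-222 in dCt, against a median of 0.45 over all 369 assays with a value in every sample. Of those assays, 23 varied less than miR-221 and 16 less than miR-222.

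**Figure D1:**
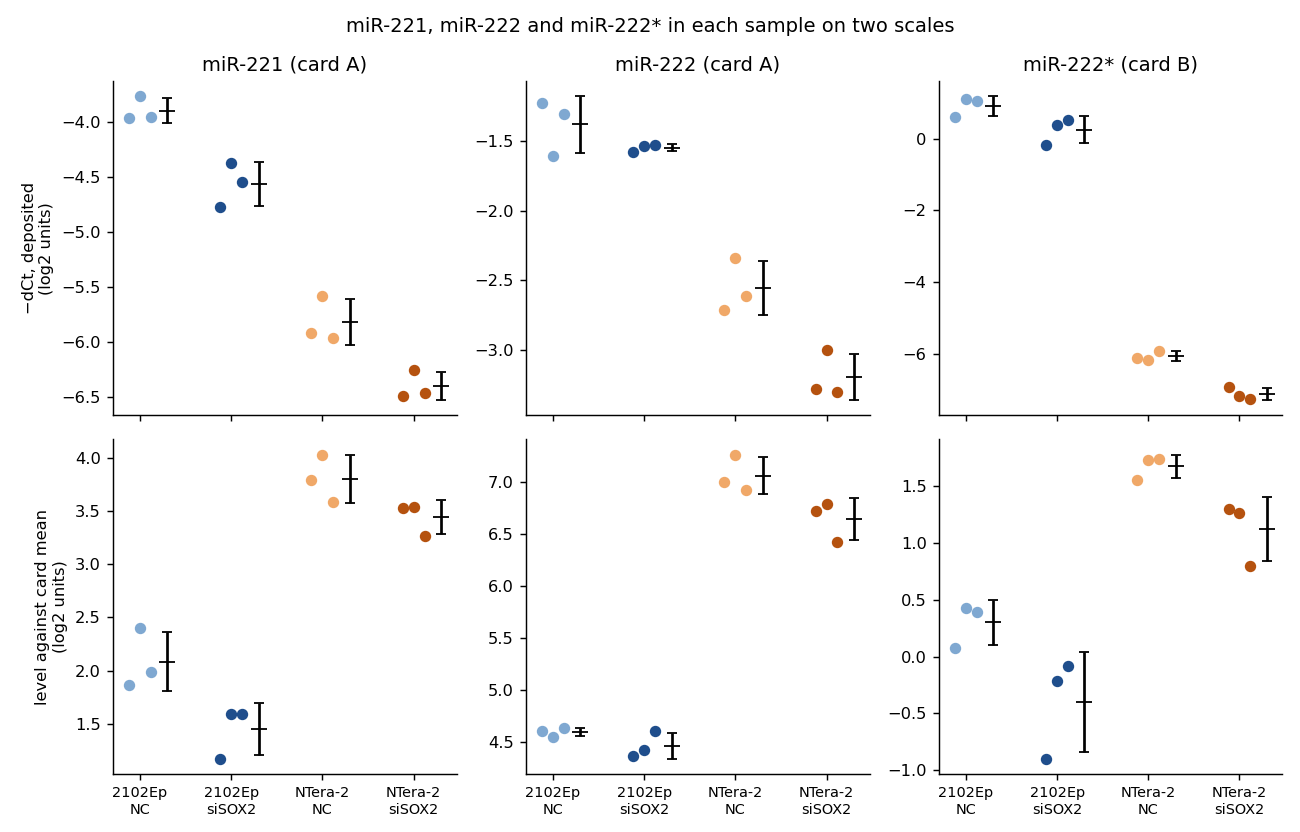
Level of miR-221, miR-222 and miR-222* (columns) in the 12 samples. The upper row plots minus the deposited dCt and the lower row the log2 level against the mean of the card, in log2 units. Points are samples, and bars are the mean ± SD of 3 replicates. In NTera-2 cells both members sit below 2102Ep cells in the upper row and above them in the lower row, and in NTera-2 cells the siSOX2 points lie below the NC points in both rows.

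Knock-down of SOX2 in 2102Ep cells was compared with NC to ask which miRNAs respond to the loss of SOX2. miR-221 was lower after knock-down and miR-222, from the same host transcript, was not called. The dCt of miR-221 was 3.96, 3.76 and 3.95 in NC samples and 4.77, 4.37 and 4.54 in siSOX2 samples. The groups did not overlap. miR-221 fell by 0.67 on the log2 scale (SE 0.19, 95% interval -1.09 to -0.24, limma adjusted p = 0.041), which left 63.0% of the NC level. Of 431 assays tested, 14.6% were called, 9.98% as lower, and 18.1% had siSOX2 samples that all lay below the NC samples. miR-221 had the 85th lowest log2 change of 431, so its fall was of moderate size among these assays.

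The call of miR-221 rested on the choice of reference and test. It was lost in 13 of 19 alternatives, with an adjusted p of 0.086 with U6, 0.094 for the global mean, 0.19 for the global median and 0.47 with RNU44 and RNU48. With the small nucleolar RNAs RNU44 and RNU48, the log2 change was -0.31, and on card A the mean Ct of these RNAs was itself later after knock-down, by 0.43 cycles for RNU44 and 0.21 cycles for RNU48. Against miR-16 alone, the adjusted p was 0.011. Without any 1 sample other than 2102Ep siSOX2 replicate 2, the adjusted p lay between 0.083 and 0.13.

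For miR-222 in 2102Ep cells, the dCt was 1.22, 1.61 and 1.31 in NC samples and 1.58, 1.54 and 1.53 in siSOX2 samples. NC replicate 2 lay above all siSOX2 samples in dCt, so the groups overlapped. The log2 change of miR-222 was -0.17 (SE 0.19, 95% interval -0.59 to 0.25, limma adjusted p = 0.66), and it took the opposite sign, 0.18, with RNU44 and RNU48.

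In NTera-2 cells, neither member passed the threshold after knock-down, although siSOX2 and NC samples were separated for both. The dCt of miR-221 was 5.92, 5.58 and 5.96 in NC and 6.49, 6.26 and 6.46 in siSOX2 samples. Every siSOX2 sample had a higher dCt, that is, a lower level, than every NC sample. The log2 change was -0.58 (SE 0.19, 95% interval -1.01 to -0.16, limma adjusted p = 0.11). The dCt of miR-222 was 2.71, 2.34 and 2.61 in NC and 3.28, 3.00 and 3.31 in siSOX2 samples. Here too the groups did not overlap, with a log2 change of -0.64 (SE 0.19, 95% interval -1.06 to -0.22, limma adjusted p = 0.088).

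That separation was common in NTera-2 cells. Of 451 assays tested there, 5.54% were called (25 assays, or 9 with the replicate block) and 22.8% had siSOX2 samples that all lay below the NC samples, and the median log2 change of all assays was -0.27. Measured from that median, the changes of miR-221 and miR-222 were -0.32 and -0.37, and with the global mean as the reference they were -0.36 and -0.42 (limma adjusted p = 0.46 and 0.28). The adjusted p stayed above 0.05 for both members in all 19 alternatives, the lowest being 0.085 for miR-221 and 0.060 for miR-222.

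**Figure D2:**
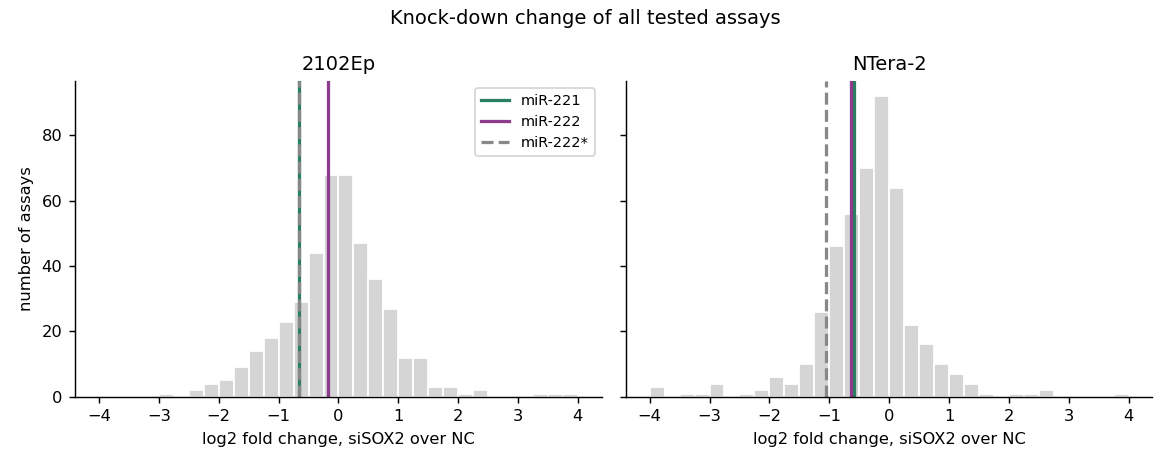
Number of assays (vertical axis) by log2 fold change of siSOX2 over NC (horizontal axis, bins of 0.25) for the 431 (2102Ep) and 451 (NTera-2) assays tested. Lines mark miR-221, miR-222 and miR-222*, which all lie left of 0, and values beyond 4 are drawn in the outermost bins. In NTera-2 cells the bulk of the assays is shifted below 0 as well.

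miR-222*, the strand from the other arm of the MIR222 precursor, was lower after knock-down in NTera-2 cells. Its guide partner miR-222 was not called there, but the difference between the strands was not tested. They were measured on different cards and against different references. With the global mean as the reference the log2 changes were -0.55 for miR-222* and -0.42 for miR-222. The dCt of miR-222* was 6.10, 6.17 and 5.90 in NC and 6.92, 7.18 and 7.25 in siSOX2 samples of NTera-2. The groups did not overlap, with siSOX2 samples lower, as for 22.8% of 451 assays. The median log2 change of all assays was -0.27. miR-222* fell by 1.06 on the log2 scale (SE 0.24, limma adjusted p = 0.026), to 48.0% of the NC level. The limma adjusted p was 0.053 with the replicate number as a block, a pairing that the sample titles do not state. The call was also lost with each other reference tried (adjusted p = 0.080 with U6, 0.30 with the global mean, where the log2 change was -0.55), with tests of this assay alone or of the 6 NTera-2 samples alone (adjusted p = 0.050 to 0.12), and without any 1 sample except NC replicate 2.

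In 2102Ep cells the dCt of miR-222* was -0.60, -1.10 and -1.04 in NC and 0.18, -0.39 and -0.52 in siSOX2 samples. The groups did not overlap, with siSOX2 samples lower, as for 18.1% of 431 assays. The log2 change was -0.67 (SE 0.24, limma adjusted p = 0.091). This was close in size to the change of miR-221 in the same samples (-0.67) and larger than that of miR-222 (-0.17), but miR-222* was measured on the other card and against another reference. With RNU44 and RNU48 the log2 change of miR-222* was -0.11 and that of miR-221 -0.31, and without siSOX2 replicate 1 they were -0.45 and -0.56.

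**Figure D3:**
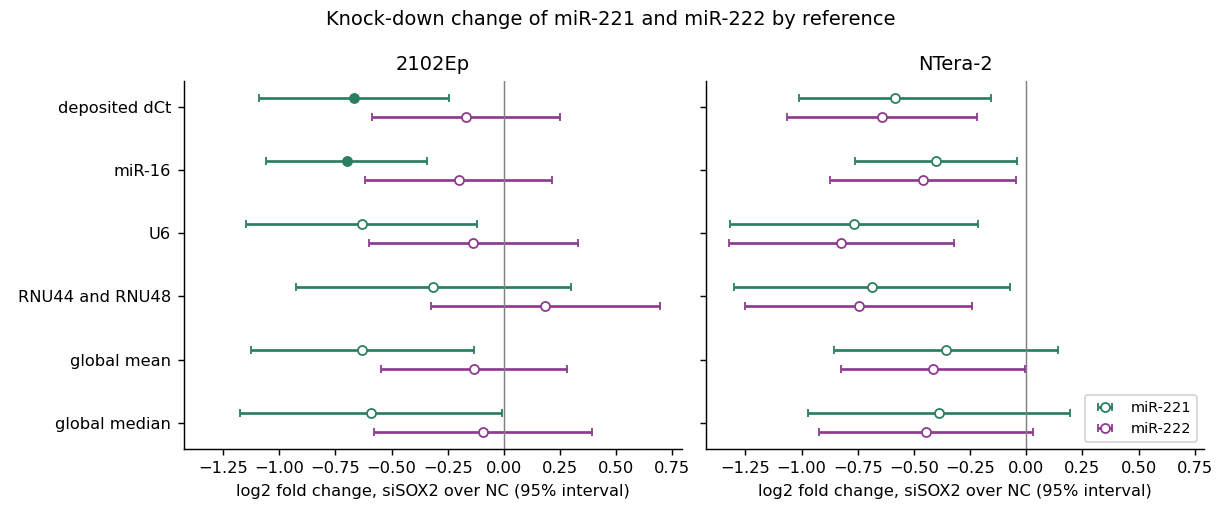
Log2 fold change of siSOX2 over NC with its 95% interval (horizontal axis) for miR-221 (green) and miR-222 (purple) under 6 references (vertical axis), in 2102Ep and NTera-2 cells. Filled points have an adjusted p under 0.05. Only miR-221 in 2102Ep cells is filled, for the deposited dCt and for miR-16, and the single point right of 0 is miR-222 with RNU44 and RNU48 in 2102Ep cells.

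Whether the members responded to knock-down in unlike ways in the 2 lines was tested as the difference of the changes. For miR-221 this difference, NTera-2 minus 2102Ep, was 0.08 on the log2 scale (SE 0.27, 95% interval -0.51 to 0.68, limma adjusted p = 0.90). For miR-222 it was -0.47 (SE 0.27, 95% interval -1.06 to 0.12, limma adjusted p = 0.35). Of 384 assays, 6.25% passed in this test (24 assays, or 4 with the replicate block), and neither member did, so the call of miR-221 in 2102Ep cells and its absence in NTera-2 cells do not show that the lines differ. The sign of the miR-221 difference turned with U6 (-0.13), with RNU44 and RNU48 (-0.37), and without 2102Ep siSOX2 replicate 1 (-0.02).

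Because both members sit on card A, the level of miR-222 relative to miR-221 in a sample, the Ct of miR-221 minus that of miR-222, needs no reference RNA. It was 2.74, 2.15 and 2.65 log2 units in 2102Ep NC, 3.19, 2.83 and 3.01 in 2102Ep siSOX2, 3.21, 3.24 and 3.35 in NTera-2 NC, and 3.20, 3.25 and 3.16 in NTera-2 siSOX2 samples. The means ± SD were 2.51 ± 0.32, 3.01 ± 0.18, 3.26 ± 0.07 and 3.20 ± 0.05 (n = 3 each). NTera-2 samples were tightly grouped near the upper end, and 2102Ep NC samples were lowest. 2102Ep siSOX2 replicate 1, at 3.19, lay inside the NTera-2 range and the other 2102Ep samples below it.

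Averaged over NC and siSOX2 samples, miR-222 relative to miR-221 was higher in NTera-2 than in 2102Ep cells by 0.47 on the log2 scale, or 1.38-fold (exact two-sided permutation test within NC and siSOX2, p = 0.010, where the smallest possible value is 0.005). The difference lay between 0.38 and 0.53 with each sample left out. It was 0.75 in NC samples alone, where the groups did not overlap, and 0.19 in siSOX2 samples alone, where they did (exact permutation p = 0.10 and 0.20, with 0.10 the smallest possible). In 2102Ep cells the within-sample value was 0.50 higher after knock-down and the groups did not overlap (exact permutation p = 0.10, the smallest possible for 3 against 3). It was 0.61 without NC replicate 1 and 0.32 without NC replicate 2. In NTera-2 cells the change was -0.06 (exact permutation p = 0.40) and the groups overlapped. How many other pairs of assays part the groups likewise was not counted, so these differences cannot be called particular to this pair. With Ct set against the mean of the card, 72.9% of 384 single assays were called between the lines in NC samples.

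**Figure D4:**
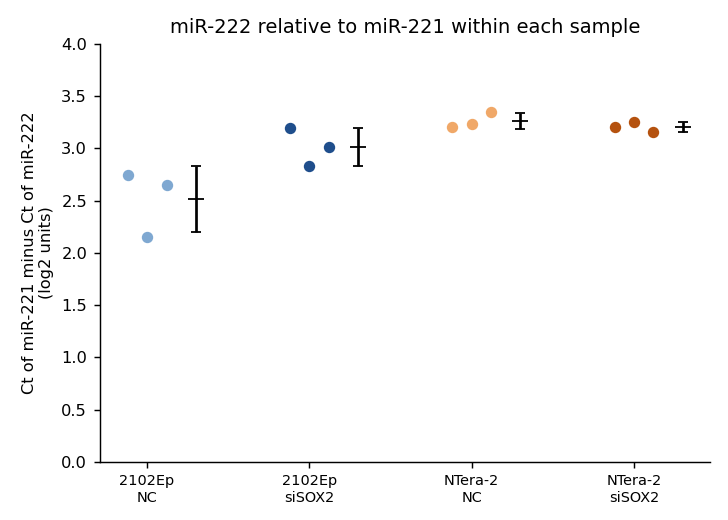
Level of miR-222 relative to miR-221 within each sample, as the Ct of miR-221 minus the Ct of miR-222 in log2 units (vertical axis, from 0), in the 4 groups. Points are samples, and bars are the mean ± SD of 3 replicates. 2102Ep NC samples are lowest, at 2.15 to 2.74, and the 6 NTera-2 samples lie between 3.16 and 3.35.

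The lines were also compared directly, first in NC samples, with each Ct set against the mean of the assays of the same card measured in all 6 samples. On that scale both members were higher in NTera-2 cells. miR-221 was higher by 1.73 on the log2 scale (SE 0.26, limma adjusted p = 9.7e-04), or 3.33-fold, and miR-222 by 2.48 (SE 0.22, limma adjusted p = 9.0e-05), or 5.59-fold. In both cases the 3 NTera-2 samples lay above all samples of 2102Ep, as they did for 41.4% of 384 assays. Of those 384 assays tested, 72.9% were called, 39.3% as higher in NTera-2, so a call in this comparison was common. miR-222 had the 70th and miR-221 the 107th highest value of 384. In siSOX2 samples the differences were 1.98 for miR-221 (SE 0.22, limma adjusted p = 2.2e-04) and 2.17 for miR-222 (SE 0.20, limma adjusted p = 1.2e-04), where 75.5% of 384 assays were called and 43.2% had NTera-2 samples that all lay above those of 2102Ep.

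The direction of the line difference turned with the reference. In NC samples, on the deposited dCt, miR-221 was lower in NTera-2 cells (log2 difference -1.92, limma adjusted p = 1.3e-04) and so was miR-222 (-1.18, adjusted p = 0.0023). With miR-16 alone the differences were -1.38 and -0.63, and with U6 they were -2.47 and -1.72. With RNU44 and RNU48 they were 0.19 (adjusted p = 0.57) and 0.94 (adjusted p = 0.011), and in raw Ct with no reference 1.61 and 2.36, higher in NTera-2. The reference RNAs themselves differed between the lines. In NC samples U6 on card A crossed at 14.9 ± 0.05 in 2102Ep and 10.8 ± 0.18 in NTera-2 cells, miR-16 at 21.6 ± 0.24 and 18.6 ± 0.45, RNU48 at 18.5 ± 0.11 and 16.8 ± 0.57, and RNU44 at 17.3 ± 0.23 and 16.3 ± 0.58 (SD, n = 3). The mean of the 224 card A assays with values throughout differed by 0.10 cycles. The median log2 difference of all assays was 0.16 on the card mean and -5.35 on the deposited dCt (assays of card B, with their other constants, included). On card A this change of reference shifts every assay of a sample by the same amount. The place of both members among fully measured card A assays thus cannot change, and no conclusion is drawn from it.

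**Figure D5:**
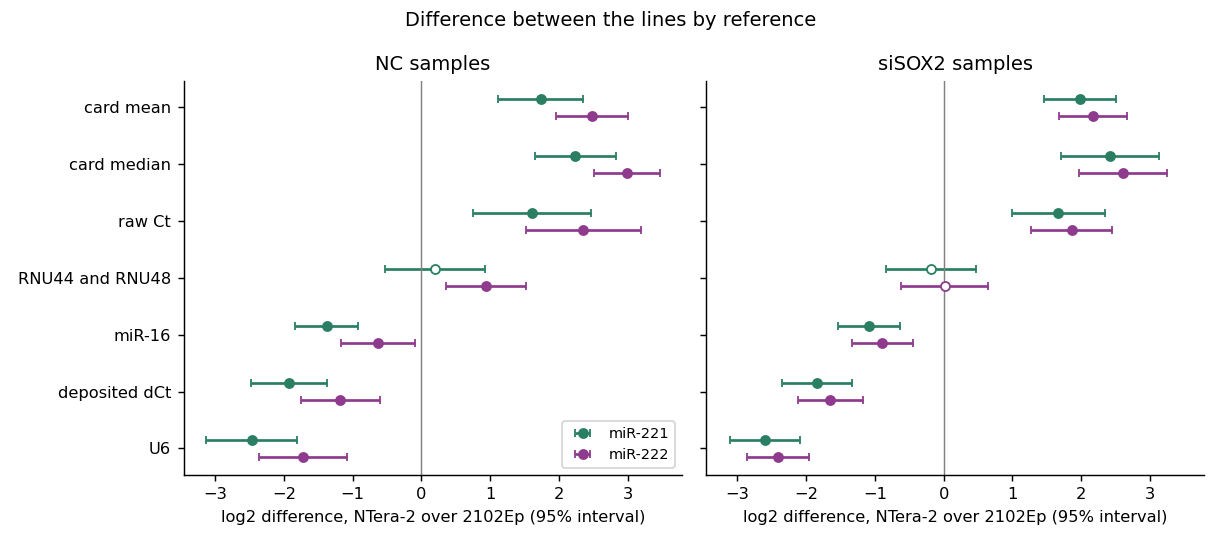
Log2 difference of NTera-2 over 2102Ep cells with its 95% interval (horizontal axis) for miR-221 (green) and miR-222 (purple) under 7 references (vertical axis), in NC and in siSOX2 samples. Filled points have an adjusted p under 0.05. The values run from above 1.5 with the card mean, card median or raw Ct to below 0 with miR-16, the deposited dCt or U6, and miR-222 lies right of miR-221 in each pair.

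On the card mean scale the order of the groups, from high to low, was NTera-2 NC, NTera-2 siSOX2, 2102Ep NC and 2102Ep siSOX2 for both members. The mean log2 level of miR-222 over the card mean was 7.06 ± 0.18, 6.65 ± 0.20, 4.60 ± 0.04 and 4.47 ± 0.12 (SD, n = 3) in that order, and that of miR-221 was 3.80 ± 0.22, 3.44 ± 0.16, 2.08 ± 0.28 and 1.45 ± 0.24. On this scale neither NTera-2 NC and NTera-2 siSOX2 nor 2102Ep NC and 2102Ep siSOX2, neighbours in that order, passed the test for either member (limma adjusted p = 0.094 for miR-221 in 2102Ep cells, with the global mean as the reference). miR-222* followed the same order, at 1.68, 1.12, 0.30 and -0.40, and its line difference in NC samples, 1.34 (SE 0.22, limma adjusted p = 0.0016), turned to -0.95 with RNU44 and RNU48.

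The assays whose pattern over the 12 samples was nearest to each member were found among the 369 measured in all samples, by the root mean square difference of the centred log2 levels on the card mean scale. For miR-221 they were miR-455-3p (0.20 log2 units, Pearson r = 0.98), miR-25 (0.25), miR-222* (0.27), miR-30c (0.30) and miR-367 (0.31). For miR-222 they were miR-19b (0.15, r = 0.99), miR-367 (0.19), miR-17 (0.20), miR-126 (0.21) and miR-590-3p (0.22). The members were not each other's nearest: miR-222 was ninth for miR-221, and miR-221 was 22nd for miR-222, at 0.33 log2 units (r = 0.97). These correlations mostly reflect the difference between the lines, and the samples share card and reference.

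Other miRNAs of the X chromosome were taken from 1 cluster. Of 13 names in the Xp11.23 cluster (miR-188, miR-362, miR-500, miR-501, miR-502, miR-532 and miR-660), 6 assays were matched. In 2102Ep cells 5 were tested, with 0 called (14.6% of all assays) and a median log2 change of 0.53 against -0.003 for all assays. Their log2 changes were 0.15 for miR-362-3p, 0.89 and 0.35 for a pair of miR-500 assays, 0.78 for miR-502-3p (unadjusted p = 0.021 by limma) and 0.53 for miR-532-3p. In NTera-2 cells 0 of 6 were called (5.54% of all assays), with a median of -0.17 against -0.27, and with values of -0.48 for miR-362-3p, -0.18 and 0.17 for miR-500, -0.15 for miR-502-3p, 0.39 for miR-532-3p and -0.20 for miR-660. The lowest unadjusted p there was 0.068 by limma.

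Of 14 miRNAs that, like miR-221 and miR-222, are high in differentiated and mesenchymal cells, 11 had an assay. In 2102Ep cells 1 rose and 2 fell among 11, where 14.6% of all assays were called, with a median log2 change of 0.38 against -0.003 for all assays. miR-24, which restrains proliferation in many differentiating cells, rose by 0.97 (SE 0.21, limma adjusted p = 0.010). miR-31, known as a regulator of tumour cell invasion, fell by 0.95 (SE 0.20, limma adjusted p = 0.0098), and miR-125b fell by 0.67 (SE 0.20, limma adjusted p = 0.047). The call of miR-125b was lost in 14 of 19 alternatives, among them U6 (adjusted p = 0.055), the global mean (0.069), RNU44 and RNU48 (log2 change -0.31, adjusted p = 0.47) and each sample left out. In NTera-2 cells 1 rose and 1 fell among 10, where 5.54% of all assays were called, with a median of -0.43 against -0.27. miR-145, which represses pluripotency factors, rose by 1.49 (SE 0.26, limma adjusted p = 0.012, or 0.068 with the replicate block), and miR-31 fell by 1.27 (SE 0.20, limma adjusted p = 0.0049, or 0.053 with the block). The list thus moved in both directions, and the changes of miR-221 lay inside its range.

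Of 14 miRNAs reported, like both members, to target inhibitors of the CIP/KIP family, 13 had an assay, among them the miR-17, miR-106 and miR-302 families. After knock-down 1 of 13 was called in each line (14.6% of all assays in 2102Ep and 5.54% in NTera-2), miR-24 as above in 2102Ep and miR-372, a miRNA of early embryonic cells, in NTera-2 cells, which fell by 1.40 (SE 0.32, limma adjusted p = 0.026, or 0.065 with the replicate block). The call of miR-372 was lost in 10 of 19 alternatives, among them the global mean (adjusted p = 0.054), the line alone (0.14) and 4 of 6 samples left out. The list had a median log2 change of -0.12 (2102Ep) and -0.15 (NTera-2), against -0.003 and -0.27 for all assays. Between the lines, in NC samples on the card mean scale, 12 of 13 were higher and 1 was lower in NTera-2 cells, where 39.3% of all assays were called higher, with a median of 2.34 against 0.16 for all assays, and the differences of miR-221 (1.73) and miR-222 (2.48) lay on either side of that median. miR-106a (log2 difference 3.94) and miR-302d (3.32) were highest, and miR-372 was lower in NTera-2 cells by a log2 difference of -6.12. The direction of the list turned with the reference too, since on the deposited dCt 0 of 13 were higher and 12 were lower. On that scale 370 of 384 assays were called in either direction. The median log2 difference was -1.37 for the list and -5.35 for all assays, those of card B included. The constants of card B were made differently in each line, so these medians are not directly comparable.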

How the data were processed

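The 12 samples were run on TaqMan A and B cards after Megaplex reverse transcription and pre-amplification. The authors exported raw Ct values from DataAssist 3.0 and deposited them with dCt values, both on the log2 scale. A further table with the authors' own fold changes and p-values was not used. In the raw column of 2102Ep siSOX2 replicate 3, values below row 105 were displaced by 1 measured row and were recovered as dCt plus the constant of the card (99.7% of 339 values matched within 0.02 cycles). No pairs of samples held identical values (0 pairs).

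A value was measured where a dCt was given and the raw Ct was below 40. Assays with 2 or more measured values in each group of 3 entered a two-sided limma fit of minus dCt on 4 group means (lmFit, eBayes; limma 3.58.1, R 4.3.3). Lines were compared on the 6 samples of each arm, against the card mean. P-values were adjusted over all assays of a comparison (Benjamini-Hochberg) and called below 0.05. The tests were checked on simulated data. The within-sample difference was tested by exact permutation. P-values measure the spread between these samples only, and 3 per group limit the precision.

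Residual dCt of NC and siSOX2 samples that share a number had correlations of 0.12, 0.26 and 0.16 in NTera-2 and 0.16, 0.17 and 0.06 in 2102Ep cells. In both lines these were higher than the correlations with samples of another number. The sample titles do not state a pairing, so the main fit used no pairs and the replicate block was an alternative in both lines. With the block the calls of miR-222*, miR-31, miR-145 and miR-372 in NTera-2 cells and of miR-221 and miR-125b in 2102Ep cells were lost. Those of miR-24 and miR-31 in 2102Ep cells were kept.

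Alternatives were other references, Ct limits of 35 and 32, complete assays, single-assay tests, 1 line alone, all 12 samples, a trend, a replicate block and each sample left out. miR-16 alone and raw Ct were added after seeing the data. Named miRNAs were both members, the opposite strand, the reference RNAs, the 5 nearest assays and, of each list, the largest changes past the threshold. The members and lists were chosen with earlier results of these data known. Lists were matched by exact name, and hepatic markers had 0 assays.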

Additional observations from a re-analysis of the deposited data

How the results depend on the processing

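Changes are on the log2 scale. For miR-221 in 2102Ep cells the fall kept its sign in all 19 alternatives but lost its call in 13: U6 (-0.63), global mean (-0.63), global median (-0.59), RNU44 and RNU48 (-0.31), unequal-variance, equal-variance and line-alone tests and the replicate block (-0.67, with adjusted p = 0.13, 0.063, 0.082 and 0.057), and 5 of 6 samples left out. With each sample left out the change lay between -0.76 (without siSOX2 replicate 2, call kept) and -0.56, and where the call was lost between -0.70 and -0.56. In both lines every sample correlated best with the sample of its own number, a hint from the data and not from the design. miR-222 in 2102Ep cells lay between -0.28 and -0.09 with each sample left out and turned to 0.18 with RNU44 and RNU48. In NTera-2 cells both members kept sign and side in all 19 alternatives (-0.66 to -0.46 for miR-221 and -0.74 to -0.53 for miR-222 with each sample left out), and the replicate block gave an adjusted p of 0.12 and 0.11. The block lowered the number of assays called in NTera-2 cells from 25 to 9, and over the alternatives that keep all samples that number lay between 3 and 25. In 2102Ep cells it lay between 8 and 63. The fall of miR-222* in NTera-2 cells lost its call with U6 (-1.05), global mean (-0.55), global median (-0.62), RNU44 and RNU48 (-0.99), the tests of the assay or line alone and the replicate block (-1.06), and 5 of 6 samples left out (-1.16 to -0.98).

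The difference of the knock-down effects turned for miR-221 with U6 (-0.13) and RNU44 and RNU48 (-0.37), and lay between -0.022 and 0.20 with each sample left out. For miR-222 it lay between -0.57 and -0.36, and for miR-222* it turned to 0.14 with the global mean. The replicate block left 4 assays called in this comparison in place of 24, and RNU44 and RNU48 gave 41.

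Between the lines, NC samples turned with the deposited dCt (-1.92 for miR-221, -1.18 for miR-222), U6 (-2.47, -1.72) and miR-16 (-1.38, -0.63), and miR-221 lost its call with RNU44 and RNU48 (0.19). siSOX2 samples turned with the deposited dCt (-1.84, -1.65), U6 (-2.60, -2.41) and miR-16 (-1.08, -0.89), and with RNU44 and RNU48 the values were -0.18 and 0.013. With each sample left out the NC differences lay between 1.62 and 1.89 (miR-221) and between 2.39 and 2.55 (miR-222), and the siSOX2 differences between 1.85 and 2.07 and between 2.10 and 2.29. miR-222* turned with the deposited dCt (-6.97 in NC, -7.36 in siSOX2 samples), whose card B constants were made differently in each line, and with RNU44 and RNU48 (-0.95, -1.84), and lost its call in raw Ct (0.90, 0.87). The calls of miR-24, miR-31 and miR-145 were lost in 1 (miR-24, 2102Ep), 3 (miR-31, 2102Ep), 2 (miR-31, NTera-2) and 4 (miR-145, NTera-2) of 19 alternatives each. miR-106a turned with U6 (-0.26) and miR-302d with the deposited dCt (-4.99). U6 was not available on card B of 2102Ep cells, so card B assays have no U6 value there.

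For the within-sample difference between the lines, the alternative paired samples of different lines that share a treatment and a replicate number. Exact permutation within these pairs gave p = 0.031, the smallest possible. The sample titles do not pair cultures of different lines, and the mean difference of 0.47 cannot change under such pairing. No conclusion is therefore drawn from this alternative. The cause of the changes was not tested. Weak assays and 3 samples per group limit what can be called.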
